A study of Mus musculus with 57 samples.

Results

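The messages attached to tagged ribosomes in the uninjured nephron of the mouse were compared with those of 3 other kidney cell populations. The nephron group was taken by its label: 3 arrays of mice that had no surgery, out of 57 arrays in the series. They were set against the mean of the interstitial, endothelial and myeloid lines without surgery, with 3 arrays and equal weight for each line, so 12 arrays entered and 18989 genes were tested. The study used translating ribosome affinity purification (TRAP), in which ribosomes carrying an eGFP-tagged L10a protein are pulled out of a kidney extract with antibodies to GFP and their RNA is hybridised to an array. All 4 lines carried the eGFP-L10a allele at Rosa26, driven by CAGGS and blocked until Cre removes a stop cassette. Cre came from Six2-Tet-GFP::CRE in the nephron line, Foxd1-GFP::CRE in the interstitial line, Cdh5-CRE in the endothelial line and Lyz2-CRE in the macrophage line, here called myeloid. These mice were male on a mixed C57BL/6 and 129 background. The nephron, interstitial and endothelial mice without surgery were 6 weeks old and the macrophage mice 7 weeks, so age and the myeloid line cannot be told apart. As models the lines have limits that the study's design text names: Six2 marks progenitors, so the tag reaches the whole body of the nephron that descends from them, and Foxd1 is also active in podocytes. The 3 arrays of a line are named biological replicates with no further detail, so the p-values measure the spread between these arrays.

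The nephron is the filtering and reabsorbing tube of the kidney. Its proximal tubule takes up glucose, amino acids, phosphate and filtered protein, the thick ascending limb and distal tubule recover salt, calcium and magnesium, and the collecting duct, which comes from the ureteric bud and not from Six2 progenitors, adjusts water and acid. A ribosome pull-down reads the messages bound to tagged ribosomes in 1 lineage, together with whatever RNA stays on the beads from the rest of the tissue.

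Levels are log2 of the array intensity, a difference of 1 is 2-fold, and an error after ± is the standard error of the limma fit. Arrays of a line agreed closely: the correlation over genes was 0.996 for each pair of nephron arrays, against 0.921 to 0.940 for nephron with interstitial arrays, 0.871 to 0.891 with myeloid arrays and 0.856 to 0.887 with endothelial arrays. Some arrays stood apart for certain genes. Of 28 proximal tubule transport genes, 27 were highest in endothelial array 3 within that line, an array that was the highest of its line for 26.2% of all genes. Likewise 26 were highest in myeloid array 1 (39.2% of all genes) and 24 in interstitial array 1 (31.4% of all genes). Leaving out each of the 12 arrays in turn, the counts of called transport genes stayed at 28 and their median difference ran from 1.41 to 1.53. Nephron array 2 stood apart for tubular injury genes, as given with that list. Levels of macrophage genes also differed between the lines. The summed intensity of 32 such genes ran from 5119 to 8547 in nephron arrays and 26286 to 50572 in interstitial arrays. It ran from 109327 to 117418 in endothelial and 173396 to 182506 in myeloid arrays. What part messages of other cells had in the differences of other genes was not tested. In such bulk pull-downs fewer cells of a type and less RNA per cell cannot be told apart.

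The nephron line differed from the other lines at most of the genes tested, by less than 2-fold in the larger share of them. A call required an adjusted p below 0.05 (limma, Benjamini-Hochberg over all genes), which 10313 of 18989 genes met (54.3%), 5854 with higher (30.8%) and 4459 with lower levels in the nephron (23.5%). Higher calls made up 56.8% of all calls, and 77.9% when each array was centred on its median, a scaling that moved the median difference of all genes from 0.06 to 0.26. At least 2-fold, 1213 genes were higher (6.39%) and 1529 lower (8.05%). The lower side reached farther. There were 125 genes higher by 2 or more on the log2 scale and 9 by 3 or more, while 592 and 234 were lower by as much, and 1 gene was higher by 4 or more against 69 lower. Against each other line separately, 3108 genes (16.4%) were higher than all 3 lines and 1624 (8.55%) lower than all 3. All 3 nephron arrays lay above all 9 others at 3939 genes (20.7%) and below them at 1923 (10.1%). Nephron levels were higher than interstitial levels at 24.7% of genes, and higher than endothelial and myeloid levels at 28.4% of genes each, 3 comparisons that share the nephron arrays.

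**Figure D1:**
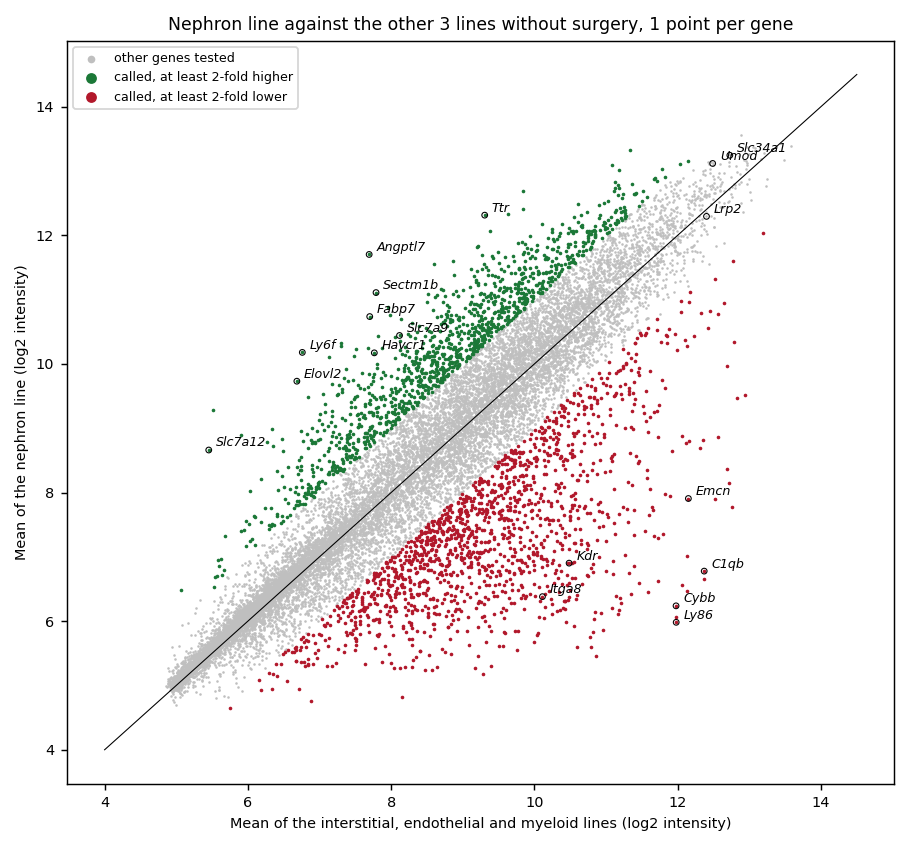
Mean log2 intensity of the 3 nephron arrays (vertical) against the mean of the 3 other lines (horizontal), 1 point per gene, for arrays without surgery. Green points are called and at least 2-fold higher (1213 genes), red points called and at least 2-fold lower (1529), grey points the other genes tested, and the line marks equality. The red cloud reaches farther from the line than the green cloud.

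The 12 named genes with the largest excess in the nephron had different known roles, and their differences ran from 2.96 to 4.01. Angptl7, a secreted angiopoietin-like protein, read 11.64, 11.73 and 11.73 in the nephron arrays and 7.07 to 8.44 in the 9 others, a difference of 4.01 ± 0.23 (adjusted p = 3.7e-08). Every nephron array lay above every other array. Ttr, the plasma carrier of thyroxine, read 12.43, 12.26 and 12.25 in the nephron, 11.04, 11.21 and 10.45 in interstitial arrays and 7.91 to 8.91 in the other 6 arrays, a difference of 3.01 ± 0.195 (adjusted p = 9.9e-08). For Ttr the interstitial arrays lay between the nephron and the rest. Elovl2, an elongase of very long polyunsaturated fatty acids, was 3.05 higher, Fabp7, a fatty acid binding protein, 3.03, and Acnat2, an acyl-CoA amino acid acyltransferase, 2.96. Smcp, a protein of sperm mitochondria, read 10.43, 10.21 and 10.33 in nephron, 9.13, 8.38 and 8.52 in interstitial and 6.46 to 6.79 in the other arrays, a difference of 3.02 ± 0.134. Sectm1b was 3.32 higher, Scgb1c1, a secretoglobin, 2.99, Tlcd4 2.97 and Ly6g2 2.98. Slc7a12, an amino acid transporter, read 8.24, 9.59 and 8.15 in the nephron against 4.90 to 6.25, a difference of 3.21 ± 0.243. Ly6f read 8.89, 11.84 and 9.81 against 6.41 to 7.32 in the others, a difference of 3.42 ± 0.435. Its nephron arrays were spread widely, with array 2 highest, and all lay above every other array.

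Motifs of 3 factors of metabolic epithelia were searched in promoters, described here because HNF4A and HNF1 factors drive proximal tubule genes. RefSeq promoters (GRCm38.p6, 300 bases, 250 before the start and 50 after it) were searched on both strands for the HNF1 core, given by name, the HNF4A core CAAAGTCCA and the ERR site TCAAGGTCA. Of all 32851 promoters, 0.399% held the HNF1 core, 0.475% the HNF4A core and 0.423% the ERR site. For the 18413 promoters of genes tested the shares were 0.326%, 0.478% and 0.299%. Among 1232 promoters of genes called at least 2-fold higher, of which 948 of 1213 genes matched the table, the shares were 1.06%, 1.46% and 0.0812%. These were 13, 18 and 1 promoters. Among 1557 promoters of genes at least 2-fold lower the shares were 0.0642%, 0.642% and 0.257%, which were 1, 10 and 4 promoters. All these shares are descriptions of letters in a window. They say nothing of the factors. The 250 bases before the start of 3 higher genes are shown with the matched letters in capitals, because the levels of each gene are given per array: G6pc with an HNF1 core (chr11:101367466-101367715, plus strand), Treh with an HNF4A core on the opposite strand (chr9:44672983-44673232, plus strand) and Smcp with the same core, also on the opposite strand (chr3:92589074-92589323, minus strand), all printed 5′ to 3′ along the gene.
G6pc: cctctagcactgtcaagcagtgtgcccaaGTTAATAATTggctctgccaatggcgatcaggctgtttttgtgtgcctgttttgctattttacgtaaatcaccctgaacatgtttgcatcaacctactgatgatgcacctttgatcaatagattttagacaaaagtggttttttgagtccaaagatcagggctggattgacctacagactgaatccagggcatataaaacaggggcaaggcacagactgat
Treh: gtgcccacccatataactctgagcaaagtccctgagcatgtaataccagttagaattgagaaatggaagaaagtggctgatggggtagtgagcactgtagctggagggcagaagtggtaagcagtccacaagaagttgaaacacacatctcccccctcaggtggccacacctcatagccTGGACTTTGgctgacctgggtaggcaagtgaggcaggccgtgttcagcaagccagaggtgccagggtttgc
Smcp: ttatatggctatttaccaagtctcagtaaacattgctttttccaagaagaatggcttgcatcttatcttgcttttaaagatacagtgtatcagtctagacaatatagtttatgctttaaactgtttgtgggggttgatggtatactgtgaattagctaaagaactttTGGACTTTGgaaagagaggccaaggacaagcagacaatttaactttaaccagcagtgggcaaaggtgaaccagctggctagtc

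Transport genes of the early proximal tubule (segments S1 and S2) were higher without exception. All 28 passed, with a median difference of 1.49 and a range of 0.52 to 2.32, beside 30.8% of all genes called higher and a median of 0.06 over all genes. The median was 0.83 against the interstitial line, 1.95 against the endothelial and 1.45 against the myeloid, and 22 of 28 had their second highest level in the interstitial line. Slc7a9, the light subunit of the cystine transporter, read 10.40, 10.51 and 10.42 in nephron, 9.25, 8.71 and 8.45 in interstitial, 7.50, 7.28 and 8.02 in endothelial and 8.21, 7.67 and 7.98 in myeloid arrays, a difference of 2.32 ± 0.18 (adjusted p = 4.3e-07). The lines were ordered alike in the sulfate transporter Slc26a1 (2.24 ± 0.181) and the glucose transporter Slc2a2 (1.84 ± 0.243). Slc34a1, the main phosphate carrier of the brush border, read 13.24, 13.24 and 13.25 in nephron arrays and 12.72 to 13.06 in interstitial, 12.30 to 12.81 in endothelial and 12.53 to 12.94 in myeloid arrays, a difference of 0.52 ± 0.122 (adjusted p = 0.0033). Its nephron arrays exceeded all others, by a small step, and against the interstitial line alone the difference of 0.30 did not pass (adjusted p = 0.13).

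**Figure D2:**
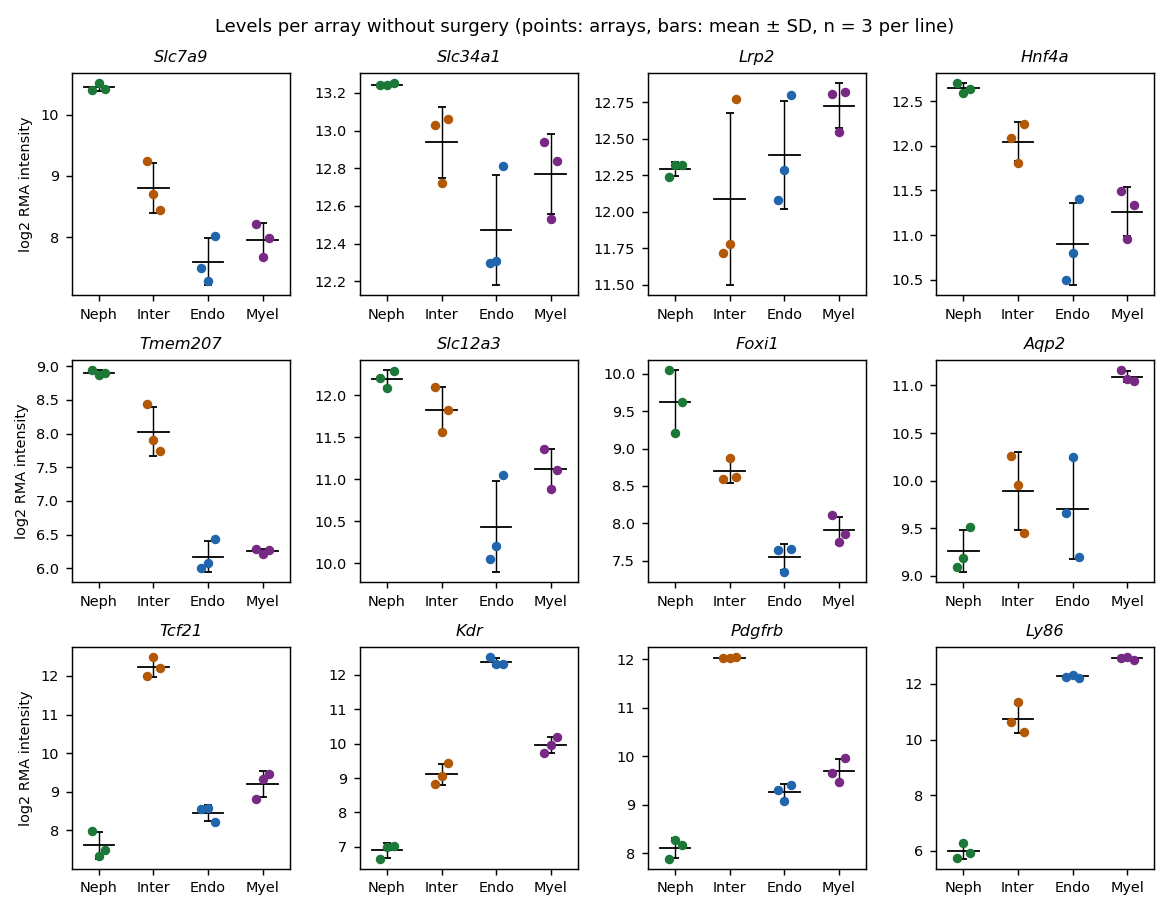
Log2 intensity of 12 genes per array (points) with the mean and SD (bars, n = 3) for the nephron, interstitial, endothelial and myeloid lines without surgery, each panel with its own vertical scale. Slc7a9, Hnf4a and Tmem207 are higher in every nephron array, the nephron arrays of Lrp2 lie within the interstitial and endothelial ranges and below the myeloid arrays, and Kdr, Pdgfrb and Ly86 are lower in every nephron array.

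Genes of the late proximal tubule (S3) and of the brush border followed the same direction with smaller differences. The counts here stand beside 30.8% of all genes called higher and 23.5% lower. All 20 S3 genes were higher (median 0.85), led by Slc22a30 (2.38 ± 0.309), Slco1a6 (1.91 ± 0.279) and Slc1a1 (1.82 ± 0.232), organic anion and glutamate carriers. Of the 20, 4 were higher than every other line, beside 16.4% of all genes. The interstitial line was the highest of the other 3 for all 20, and the median against it was 0.44. Slc22a30 did not pass against the interstitial line alone (0.96, adjusted p = 0.063). Without nephron array 1, 16 of 20 were called. Of 14 brush border enzymes 11 were higher and none lower (median 0.84), among them Alpl, an alkaline phosphatase (1.63 ± 0.139), and Vnn1 (1.47 ± 0.27). Treh, which splits trehalose, read 10.53, 10.55 and 10.66 in nephron, 9.69, 9.08 and 9.42 in interstitial and 7.80 to 9.13 in the other arrays, a difference of 1.81 ± 0.237. The proteases Mep1a, Mep1b and Dpp4 did not pass, with differences of 0.25, -0.06 and 0.09. Of 12 genes for endocytosis of filtered protein, 6 were higher and 6 did not pass. Lrp2, which encodes megalin, the chief endocytic receptor, read 12.24, 12.32 and 12.32 in nephron, 11.72, 11.78 and 12.77 in interstitial, 12.08, 12.29 and 12.80 in endothelial and 12.81, 12.55 and 12.82 in myeloid arrays. The nephron arrays lay inside the interstitial and endothelial ranges and below all myeloid arrays, and the difference was -0.11 ± 0.204 (adjusted p = 0.68). Its partner Cubn did not pass either (0.09, adjusted p = 0.796). Clcn5, a chloride-proton exchanger of endosomes, was higher by 1.64 ± 0.163, Folr1, a folate receptor, by 1.55 ± 0.147, and Lrpap1, a chaperone of megalin, by 1.06 ± 0.094.

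Salt handling segments were also higher. Of 18 thick ascending limb and macula densa genes 13 were higher and 1 lower (median 1.07), and of 17 distal convoluted and connecting tubule genes 15 were higher and 1 lower (median 0.80). Tmem207 read 8.94, 8.87 and 8.90 in nephron arrays, 8.44, 7.91 and 7.74 in interstitial and 6.01 to 6.43 in the other 6, a difference of 2.09 ± 0.129. Bsnd, the barttin subunit of chloride channels, was higher by 2.08 ± 0.146 and Slc12a1, the target of loop diuretics, by 1.09 ± 0.252 (adjusted p = 0.0028). Umod, the most used marker of this segment, read 13.09, 13.16 and 13.10 in the nephron against 11.95 to 12.98 elsewhere, a difference of 0.63 ± 0.135. Against the interstitial line alone, neither Umod (0.26, adjusted p = 0.23) nor Slc12a1 (0.58, adjusted p = 0.16) passed. Ptgs2, a prostaglandin synthase of the macula densa, was lower (-0.38), a call that was lost without nephron array 3 (-0.332, adjusted p = 0.059), with the interstitial line out of the reference (-0.176, adjusted p = 0.22), with arrays centred on their median (-0.18, adjusted p = 0.095) and with quantile normalization (-0.26, adjusted p = 0.061). In the distal tubule Trpv5, a calcium channel (1.69 ± 0.204), Pvalb, parvalbumin (1.66 ± 0.111), and the kinase Wnk4 (1.17 ± 0.137) were higher. Slc12a3, the thiazide-sensitive carrier, read 12.21, 12.09 and 12.29 in the nephron and 12.10, 11.56 and 11.82 in interstitial arrays, so these lines overlapped in a gene with a difference of 1.07 ± 0.187. Sgk1, a kinase of sodium transport, was lower (-0.85), with overlapping arrays. Its endothelial arrays read 11.67, 11.47 and 11.52, and against the interstitial line alone the difference of -0.34 did not pass (adjusted p = 0.118). Of 6 thin limb genes 3 were higher and 2 lower, beside 30.8% of all genes called higher and 23.5% lower. Among them were Fst, an activin antagonist (1.53 ± 0.214), and Slc14a2, a urea transporter (-0.95). The arrays of Slc14a2 overlapped as well. Its myeloid arrays read 10.32, 10.26 and 10.26, and against the interstitial line alone its difference of -0.32 did not pass (adjusted p = 0.20).

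Cell types outside the Six2 lineage or shared with another line differed by list: intercalated cell genes were mostly higher, podocyte genes mostly lower and principal cell genes mixed. The counts here stand beside 30.8% of all genes called higher and 23.5% lower. Among 22 principal cell genes of the collecting duct 9 were higher, 6 lower and 7 did not pass, with a median of 0.22. Aqp2, the water channel of principal cells, read 9.09, 9.19 and 9.51 in nephron and 11.16, 11.07 and 11.05 in myeloid arrays, and its difference was -0.96 ± 0.202. Its nephron arrays overlapped with interstitial and endothelial arrays, and without the myeloid line in the reference the difference was -0.532 (adjusted p = 0.056). Fxyd4 (-1.38) and St6gal1 (-1.52) were lower too, while the sodium channel subunit Scnn1a was higher (1.13). Of 20 intercalated cell genes 14 were higher and 2 lower (median 0.92): Foxi1, the factor that sets intercalated fate, read 10.05, 9.21 and 9.62 in nephron and 7.35 to 8.87 in other arrays, a difference of 1.58 ± 0.149. The proton pump subunits Atp6v0d2 (1.73 ± 0.22) and Atp6v1g3 (1.62 ± 0.131) were higher likewise. Of 15 podocyte genes 3 were higher and 10 lower (median -0.34). Tcf21, a podocyte and stromal factor, read 7.99, 7.33 and 7.50 in nephron and 12.00, 12.49 and 12.20 in interstitial arrays, a difference of -2.36 ± 0.167. Podxl, also made by endothelium, was lower (-2.09), and Col4a3, a collagen chain of the glomerular basement membrane, was higher (1.06 ± 0.078). Per the labels, the L10a allele without Cre gives signal from podocytes and some collecting duct cells, and its part in these values was not tested. The summed intensity of podocyte genes was 4973 to 5238 in nephron arrays and 10765 to 13486 in interstitial arrays.

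Transcription factors and epithelial genes of the nephron were higher. Of 23 nephron factors 20 were higher and none lower (median 1.24). Hnf4a, the master factor of proximal tubule genes, read 12.70, 12.59 and 12.64 in the nephron, 12.09, 11.81 and 12.24 in interstitial and 10.50 to 11.49 in the other arrays, a difference of 1.24 ± 0.167 (adjusted p = 4.9e-05). Hnf4g (2.15 ± 0.125), Emx2 (1.84 ± 0.09), Pax8 (1.68 ± 0.09) and Lhx1 (1.65 ± 0.097), factors of kidney tubule formation, were higher too. Among 11 progenitor genes 3 were higher and 4 lower, beside 30.8% of all genes called higher and 23.5% lower. Their differences ran from -3.73 to 1.59. The median of this list (-0.05) turned to 0.15 with arrays centred on their median. It ran from -0.12 without nephron array 3 to -0.01 without nephron array 2. Sall1, a zinc finger factor, was higher by 1.59 ± 0.107, and Six2, the factor whose promoter drives Cre, by 0.22 ± 0.061 with overlapping arrays. Of 24 epithelial adhesion and identity genes 19 were higher and none lower (median 0.99), led by Marveld3 of tight junctions (1.76 ± 0.083), the protease inhibitor Spint1 (1.74 ± 0.123) and the splicing factor Esrp2 (1.61 ± 0.164). Claudins, which set the permeability of tight junctions, split by member: 13 of 23 were higher and 3 lower. Cldn12 (1.71 ± 0.154) and Cldn16, the magnesium claudin of the thick limb (1.52 ± 0.141), were higher, while Cldn5, the endothelial claudin, was lower (-1.37) and Cldn15 lower (-2.19).

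**Figure D3:**
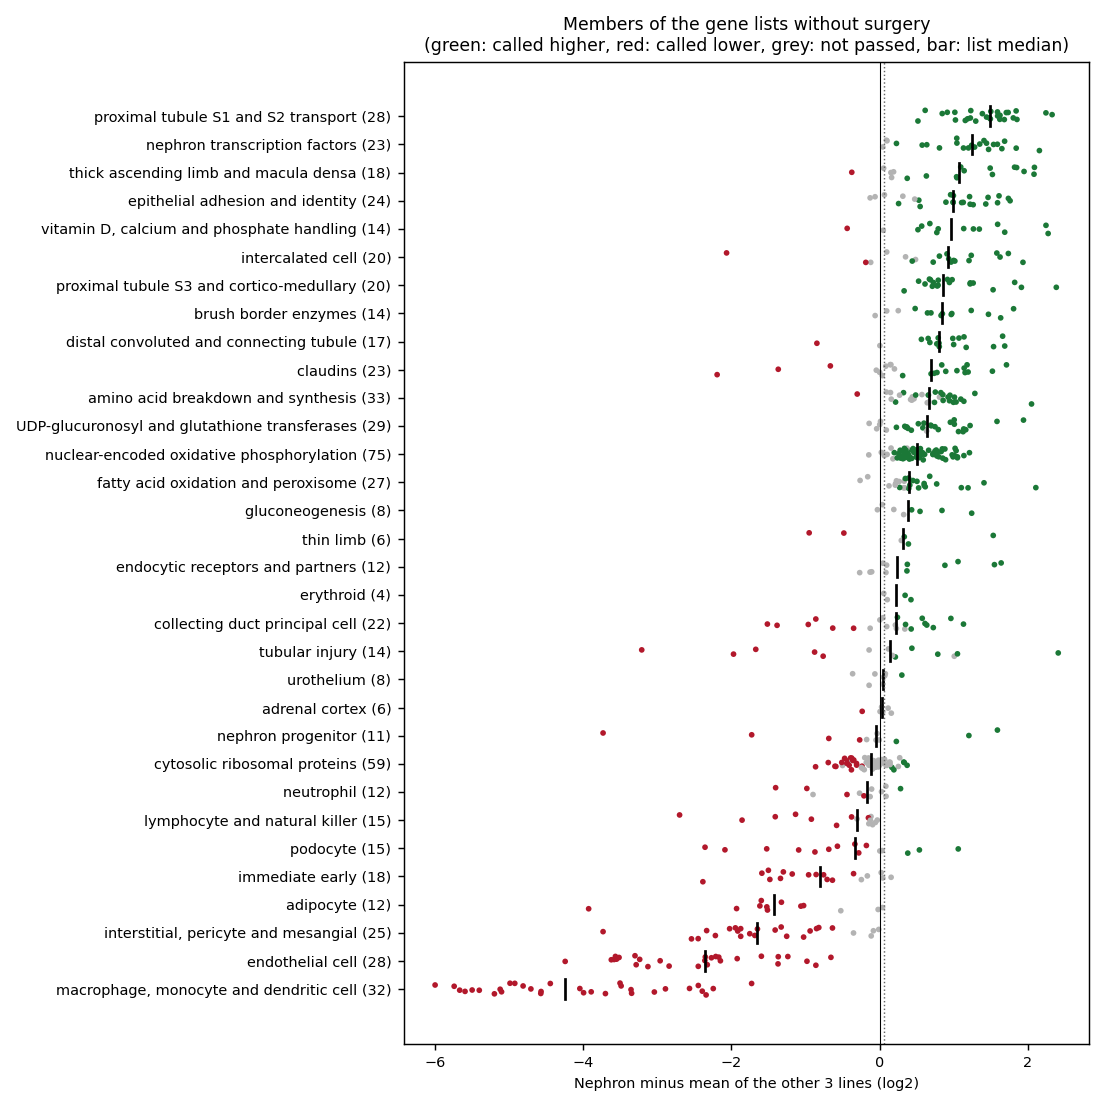
Difference of the nephron line from the mean of the other 3 lines (log2, no surgery) for the members of each list, with the number tested in brackets. Points are genes (green called higher, red called lower, grey not passed), black bars list medians and the dotted line the median of all genes (0.06). Tubule lists lie to the right and the endothelial, interstitial and macrophage lists to the left.

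Among metabolic lists, the share of genes called higher differed, beside 30.8% of all genes. Of 75 nuclear-encoded oxidative phosphorylation genes 66 were higher and none lower, with a median of 0.50. With quantile normalization 55 were higher and 1 lower. Of the 75, 28 were higher than every other line, beside 16.4% of all genes, and the median against the interstitial line was 0.26. Their largest differences were Cox7a1 (1.21 ± 0.144) and Sdhc (1.14 ± 0.072), subunits of complexes IV and II. Cox7a1 was not higher than in the interstitial line (-0.16, adjusted p = 0.5), with nephron arrays at 11.16, 11.07 and 11.03 and interstitial arrays at 10.89, 11.60 and 11.26, whereas Sdhc was (0.52, adjusted p = 0.0006). Of 33 genes for amino acid breakdown and synthesis 19 were higher and 1 lower (median 0.66), and 29 were higher without endothelial array 3. Acmsd, which diverts tryptophan breakdown from NAD synthesis, read 12.03, 11.99 and 11.94 in nephron arrays and 8.63 to 11.01 in the others, a difference of 2.05 ± 0.257. Of 27 fatty acid oxidation and peroxisome genes 17 were higher and none lower, with a median of 0.39. Pex11a, a factor of peroxisome division, was higher by 2.11 ± 0.137 and Ppara, the receptor that drives fatty acid oxidation, by 1.41 ± 0.162. Of 8 gluconeogenesis genes 4 were higher: G6pc, the last enzyme of glucose release, read 12.46, 12.74 and 12.78 in nephron and 10.52 to 12.43 in other arrays, a difference of 1.24 ± 0.204 that did not pass against the interstitial line alone (0.60, adjusted p = 0.079), and Pck1, the first committed enzyme, did not pass (0.32, adjusted p = 0.206). Of 14 vitamin D, calcium and phosphate genes 12 were higher and 1 lower (median 0.96). Cyp27b1, which makes active vitamin D, read 9.32, 9.76 and 9.51 in the nephron and 6.60 to 8.45 elsewhere, a difference of 2.27 ± 0.292 (adjusted p = 3.4e-05). Over the gene families, 206 of 347 solute carriers were higher and 37 lower, 31 of 75 cytochrome P450 genes higher and 7 lower, and 23 of 29 UDP-glucuronosyl and glutathione transferases higher. Cyp4a14, a fatty acid hydroxylase, read 11.39, 12.06 and 10.97 in the nephron and 7.08 to 10.29 elsewhere and had a wide error (2.36 ± 0.623).

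Genes of the other labelled cell types were lower. All 32 macrophage, monocyte and dendritic cell genes were lower (median -4.24), all 28 endothelial genes (median -2.35) and 21 of 25 interstitial, pericyte and mesangial genes (median -1.65), beside 23.5% of all genes called lower. Ly86, a partner of the receptor Cd180 on myeloid cells, read 5.75, 6.27 and 5.93 in the nephron, 10.64, 11.33 and 10.28 in interstitial, 12.26, 12.33 and 12.21 in endothelial and 12.92, 12.96 and 12.87 in myeloid arrays, a difference of -6.0 ± 0.173 (adjusted p = 2.8e-10). The interstitial and endothelial arrays, too, lay far above the nephron arrays. Cybb, the oxidase subunit of phagocytes (-5.74), Fcer1g (-5.72), Lyz2, lysozyme (-5.66), and C1qb of complement (-5.59) were lower likewise. Of the endothelial genes, Emcn read 8.02, 7.87 and 7.83 in nephron and 11.21 to 12.93 in other arrays (-4.24 ± 0.073), and Kdr, the main VEGF receptor, was lower (-3.58 ± 0.134), its endothelial arrays reading 12.51, 12.31 and 12.31. Among interstitial genes Itga8, an integrin of mesangial cells (-3.73), Pdgfra (-2.54) and Rgs5 of pericytes (-2.33) were lower. Col1a1 was lower (-0.94) on average, but its nephron arrays (8.28, 8.46 and 8.45) overlapped with the myeloid ones and lay above the endothelial ones (8.21, 8.17 and 8.15), and without the interstitial line in the reference the difference was -0.034. Of 12 adipocyte genes 9 were lower, where the interstitial arrays were high: Ucp1, the uncoupler of brown fat, read 10.40, 11.70 and 11.91 in interstitial and 6.76, 6.61 and 6.91 in nephron arrays. With the interstitial line out of the reference Cox8b, a muscle and brown fat subunit, went from -1.62 to 0.148, which did not pass (adjusted p = 0.43). Of 12 neutrophil genes 1 was higher and 4 lower (median -0.17, 0.03 with centred arrays). Lower neutrophil genes numbered 1 when nephron array 2 was left out and 7 without endothelial array 2. With quantile normalization 3 were higher and 6 lower. Of 15 lymphocyte genes 8 were lower. Markers of urothelium (1 of 8 higher) and adrenal cortex (1 of 6 lower) and 2 of 4 erythroid genes higher gave small differences. These counts stand beside 30.8% of all genes called higher and 23.5% lower.

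Injury genes separated the nephron arrays from each other. Of 14 tubular injury genes 5 were higher and 5 lower, beside 30.8% of all genes called higher and 23.5% lower. Their median of 0.14 was 0.01 without nephron array 2 and 0.23 without nephron array 1. Among the 3 nephron arrays, 12 of 14 were highest in array 2, an array that was the highest for 26.9% of all genes. Havcr1, which encodes the injury marker KIM-1, read 9.36, 11.28 and 9.88 in nephron arrays and 6.46 to 9.07 elsewhere, a difference of 2.41 ± 0.326 (adjusted p = 5.1e-05). Lcn2 read 9.36, 10.57 and 9.24 and did not pass (1.01, adjusted p = 0.135). Vcam1, an adhesion molecule, read 7.69, 9.52 and 8.08 and was lower than in the other lines (-1.97 ± 0.289). Array 2 was also the highest in 12 of 18 immediate early genes, which as a list were lower (13 of 18, none higher, median -0.81), led by Klf2 (-2.38 ± 0.104) and Klf6 (-1.59 ± 0.176). The pattern of array 2 was noticed after the values were seen, its part in these results was not tested, and Havcr1 stayed called with any array left out.

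Of the genes whose promoters drive Cre in the other lines, Cdh5 was lower (-3.52 ± 0.139) and Foxd1 (-0.64 ± 0.095) as well. Rpl10a, whose protein carries the tag, read 12.72, 12.81 and 12.68 in nephron and 12.69 to 12.91 in other arrays and did not pass (-0.06 ± 0.055, adjusted p = 0.39), though it did with quantile normalization (-0.199, adjusted p = 0.0084). Of 59 cytosolic ribosomal protein genes 5 were higher, 17 lower and 37 did not pass, beside 30.8% of all genes called higher and 23.5% lower. Their median was -0.12. With arrays centred on their median it was 0.08, with 19 higher and 6 lower. With quantile normalization it was -0.24, with 6 higher and 32 lower. Without interstitial array 3, 26 were lower. Rpl7 was lower (-0.87) and Rpl29 higher by 0.37. Of 39 small nucleolar RNAs 5 were higher (1 without nephron array 1) and 1 lower (median -0.01, 0.18 with centred arrays).

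The same contrast was fitted in 12 sham arrays, which share no array with those above. Sham mice had both kidneys exposed without clamping, and kidneys were taken 24 h later, and ages were 8 weeks in the nephron line, 7 in the macrophage line and 6 in the others. Calls were made at 12868 of 19032 genes (67.6%), with the nephron above the others at 7901 (41.5%) and below at 4967 (26.1%). Of the 1213 genes at least 2-fold higher without surgery, 1194 (98.4%) were called higher in sham and 2 lower, and of the 1529 at least 2-fold lower, 1520 (99.4%) were called lower and 1 higher. The median difference was 1.33 without surgery and 1.36 in sham for the higher genes, and -1.73 and -1.65 for the lower genes. Proximal tubule transport genes stayed at 28 of 28 higher with a median of 1.63, and the thick limb list at 15 of 18 higher (median 1.12). Lrp2 did not pass there either (0.04, adjusted p = 0.92), and the difference of Slc7a9 was 2.34.

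**Figure D4:**
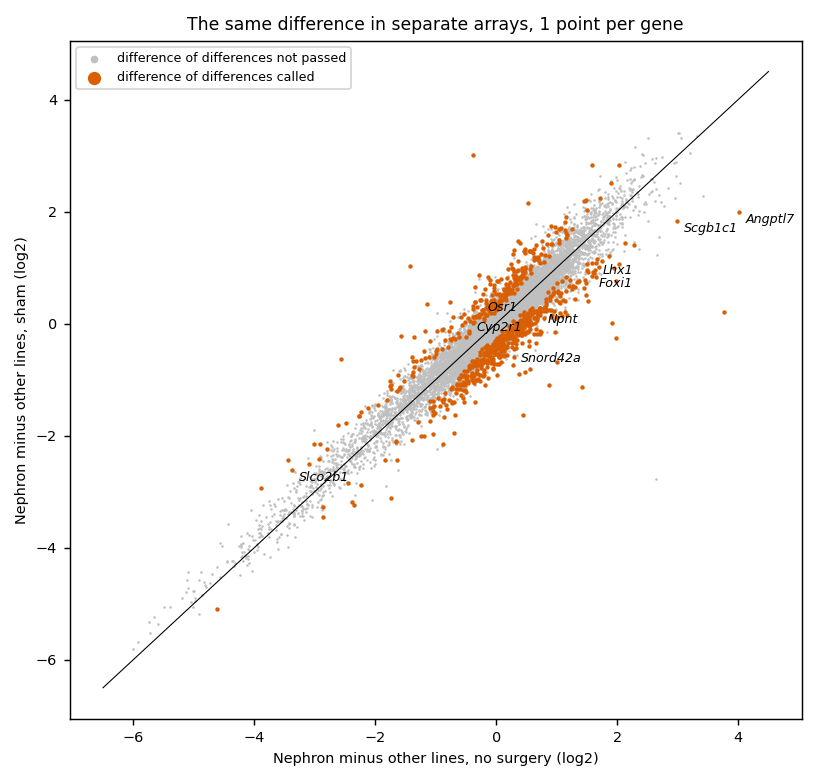
Nephron minus the mean of the other 3 lines in sham arrays (vertical) against the same difference without surgery (horizontal), 1 point per gene, log2. Orange genes differ between the conditions by limma's test of the difference of differences, and the named genes among them are labelled. Most genes lie near the line of equality, and Angptl7 falls well below it.

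The difference itself differed between sham and no surgery at 738 of 19129 genes (3.86%), 267 upward (1.4%) and 471 downward (2.46%). Leaving out 1 array moved that count between 319 (without nephron array 1, no surgery) and 1154 (without interstitial array 3, no surgery). It was also 420 without nephron array 2 of no surgery, 347 without nephron sham array 1 and 437 without nephron sham array 3. Among the named genes the largest change was that of Angptl7, whose excess was 4.01 without surgery and 1.99 in sham, a change of -2.02 ± 0.278 (adjusted p = 0.00047). Its sham nephron arrays read 9.13, 9.64 and 9.06. Scgb1c1 changed by -1.15 ± 0.211 and Foxi1 by -0.73 ± 0.166. The nephron mice were 8 weeks old in sham and 6 weeks old without surgery, so age and surgery cannot be told apart.

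Pull-downs from wild-type mice, whose kidneys carry no tag, gave the composition of the RNA that stays on the beads. All TRAP arrays were scaled alike by RMA (median intensity 105.8 to 128.4), so this comparison reads relative composition and not the amount of RNA recovered. The wild-type mice are titled C57BL/6 and given a mixed C57BL/6 and 129 background elsewhere in the labels, so a strain difference from the nephron mice cannot be told apart from the tag. Background arrays were analysed here only from operated mice, so 3 nephron sham arrays were set against 2 wild-type sham arrays, all of mice 8 weeks old, in a fit of 16 arrays. Calls were made at 10402 of 19086 genes (54.5%), 6135 above wild type (32.1%) and 4267 below (22.4%). Of the genes at least 2-fold higher than other lines without surgery, 807 (66.5%) were above wild type and 82 (6.8%) below it, and of those at least 2-fold lower, 926 (60.6%) were below and 118 (7.7%) above. Not all tubule lists had higher levels than in wild type. Proximal tubule transport genes had a median of 0.12 against wild type with 6 of 28 higher and 1 lower, brush border enzymes -0.36 with none of 14 higher and 5 lower, and intercalated cell genes -0.62 with 3 of 20 higher and 12 lower. Slc34a1 differed from wild type by -0.14 (adjusted p = 0.61), Lrp2 by -1.13 (adjusted p = 0.026) and Atp6v1b1 by -1.31. Of the 12 named genes with the largest excess over the other lines, 10 were higher than in wild type, from Ttr (3.71) and Smcp (3.55) to Angptl7 (0.67). Slc7a12 (-0.08, adjusted p = 0.95) and Acnat2 (-0.01, adjusted p = 0.98) did not pass, and Cyp27b1 was lower than in wild type (-1.57). Oxidative phosphorylation genes had a median of 1.59 with 63 of 75 higher, and ribosomal protein genes one of 1.03 with 52 of 59 higher, beside 0.50 and -0.12 against the other lines without surgery. Amino acid genes had a median of -0.79 against wild type, with 2 of 33 higher and 14 lower. Fatty acid oxidation and peroxisome genes had -0.53, with 2 of 27 higher and 16 lower. Gluconeogenesis genes had -0.34, with none of 8 higher and 3 lower. Nephron factors were higher at 14 of 23 genes (median 0.55) and the endothelial list lower at 25 of 28 (median -2.21).

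**Figure D5:**
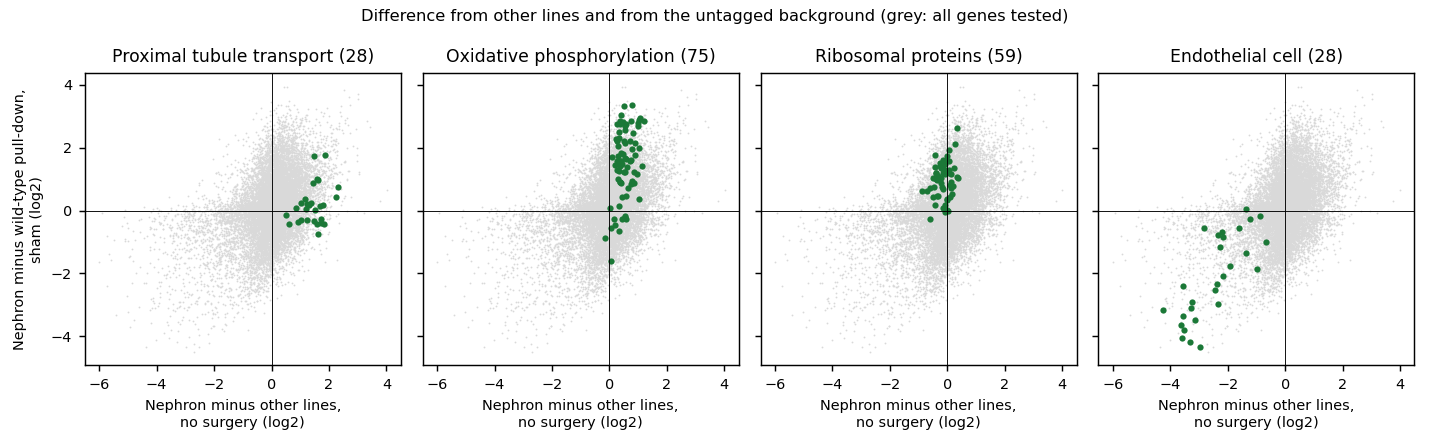
Nephron minus wild-type pull-down in sham arrays (vertical) against nephron minus other lines without surgery (horizontal), log2, for 4 lists in green over all genes in grey. Proximal tubule transport genes lie right of 0 and near 0 vertically, oxidative phosphorylation and ribosomal protein genes lie mostly above 0, and endothelial genes lie left of 0 and mostly below it.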

How the data were processed

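Ribosome-bound RNA was measured on 57 Affymetrix Mouse Gene 1.0 ST arrays. Per the submitters' processing notes, the authors summarised the arrays with RMA in Affymetrix Expression Console 1.3.1, and the deposited values are intensities on a linear scale (7.16 to 19571), so log2 was taken. Of 35556 probe sets, 21789 carried 1 gene symbol in the platform annotation (1621 several, 12146 none). They stood for 19938 genes, each represented by its brightest probe set on average across the 12 arrays without surgery. Genes above 5 (log2) in at least 3 arrays entered the linear models of limma 3.58.1 (R 4.3.3) with empirical Bayes moderation, with Benjamini-Hochberg adjustment across every gene tested. Residual degrees of freedom were 8, and the number of arrays limits the precision. The fit of the comparison without surgery was tested on simulated data with independent noise, without deviations shared by the genes of an array. The other fits were not tested in this way.

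The comparison, the gene lists and the alternatives were chosen with earlier results of these data known. Named genes were the 12 highest and 12 lowest called genes with fully separated arrays and a standard symbol, up to 4 called members per list and direction, and a fixed panel of drivers and cell type markers. Cubn, Dpp4, Lcn2, Mep1a, Mep1b and Pck1 fall outside this rule and were chosen after their values were seen. Of 547 list entries 510 had a probe set of a single symbol. Figures were drawn with matplotlib 3.10.9. Alternatives covered array scaling, filters, probe set choice, arrays in the fit, reference lines, the variance model and each array left out in turn.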

Additional observations from a re-analysis of the deposited data

Results flagged for a closer look

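Between sham and no surgery, limma's test of the difference of differences passed for 9 of the named genes, which is what brought them here. The difference of the nephron over the other lines was lower in sham for Angptl7 (-2.02), Scgb1c1 (-1.15), Foxi1 (-0.73), Lhx1 (-0.56), Npnt (-0.52) and Snord42a (-0.27). It moved upward for Slco2b1 (0.77), Osr1 (0.7) and Cyp2r1 (0.49), of which Slco2b1, an organic anion carrier, stayed below the other lines in both conditions. The nephron mice were 8 weeks old in sham and 6 weeks old without surgery, so surgery and age cannot be told apart.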

How the results depend on the processing

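With each array centred on its median, 11549 genes were called higher against 5854, and 7573 were higher than every other line against 3108. Clnk then went from -0.19 to 0.009 (adjusted p = 0.92). With the interstitial line out of the reference, Cox8b went to 0.148 (adjusted p = 0.43) and Osr1 to 0.193 (adjusted p = 0.082). None of these values with a changed sign passed. The other settings kept the counts over all genes of the comparison without surgery within 1.5 times. Some list counts moved further, and only part of these moves is given beside the lists. Leaving out 1 array at a time, the difference between sham and no surgery was called at 319 to 1154 genes, 127 to 498 upward and 192 to 656 downward, while genes called in the comparison without surgery ran from 9074 to 11053. Of 200 named genes 166 had the same call under all settings. Deviations of same-numbered arrays from their line means had correlations of -0.32 to 0.411 over 18 pairs of different lines (median -0.001). Of these, 7 were over 0.1, beside 8 of 36 pairs with different numbers. The highest was that of interstitial and myeloid array 2. Whether the numbers mark a shared batch was not tested. The replicate block gave 10261 calls, 5789 higher and 4472 lower, and 1 named gene lost its call. Precision is limited by 3 arrays per line and 2 wild-type arrays.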

Other observations

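After ischemia-reperfusion injury, 24 h after the renal vessels were clamped, the nephron line was again set against the other lines, as levels without a test. The proximal tubule transport list had a median difference of 1.56 (1.49 without surgery), the nephron factor list 1.16 (1.24) and the oxidative phosphorylation list 0.50 (0.50). The thick ascending limb list had 0.68 (1.07) and the intercalated list 0.36 (0.92). Neutrophil genes had -2.96 (-0.17) and interstitial genes -1.04 (-1.65).

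Single genes were read the same way. Tmem207 of the thick limb had -0.14 after injury against 2.09 without surgery, while Cldn16 kept 0.85 of 1.52. Fabp7 had 0.67 against 3.03 and Ttr 3.10 against 3.01. Cyp4a14 had 4.09 against 2.36. The macrophage mice were 9.5 weeks and the nephron mice 8 weeks old after injury, so age cannot be told apart from the condition.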
